A study of Mus musculus with 10 samples.

Results

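The E-cadherin junction genes described here were 10 of the 25965 features of an RNA-seq table from male mouse embryonic stem cells (mESCs), picked by gene symbol. They comprised E-cadherin (Cdh1), its cytoplasmic partners β-catenin (Ctnnb1), α-catenin (Ctnna1), p120 catenin (Ctnnd1) and plakoglobin (Jup), the adhesion molecule Epcam, the claudins Cldn6 and Cldn7, the tight junction scaffold ZO-1 (Tjp1) and the desmosomal protein desmoplakin (Dsp). All 10 were found and all 10 passed the filter on low values. The cells were from 2 independent C57BL/6 lines (C57/Bl6 in the labels), derived in suspension with the study's own method, termed Keniry2022, and divided at passage 0 (p0). Each line was then grown to passages 10 and 20 (p10 and p20) either as floating colonies under Keniry2022 (labelled New or Off) or attached to gelatin under the reference method Mulas2019 (labelled Old or On), and that reading of the labels comes from the study's methods. Every group, p0 included, was kept in 2i/LIF, a serum-free medium with a MEK inhibitor, a GSK3 inhibitor and leukaemia inhibitory factor. The methods also differ in plating density, passage interval, plate surface and medium volume, so attachment and these other differences cannot be told apart. Keniry2022 cells were passaged daily and Mulas2019 cells every other day, so that Keniry2022 p20 and Mulas2019 p10 were equal in days of culture. There were 2 libraries in each of 5 groups, and the 4 libraries per method at p10 and p20 were 2 lines at 2 passages, not 4 derivations.

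E-cadherin holds neighbouring mESCs together through its extracellular repeats, while its cytoplasmic tail binds β-catenin or plakoglobin, α-catenin links that complex to actin, and p120 catenin keeps E-cadherin at the membrane. Claudins seal tight junctions and ZO-1 ties them to the cytoskeleton, and desmoplakin anchors keratin filaments at desmosomes. β-catenin is also the effector of Wnt signalling, and in 2i medium the GSK3 inhibitor slows its degradation, a step at the protein level that RNA-seq does not measure. In mESCs E-cadherin is the main classical cadherin, and mature desmosomes and tight junctions are features of epithelia such as the trophectoderm of the blastocyst.

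Totals recovered from the deposited values were 24054000 to 30236829 reads per library. All 10 naive mESC markers examined were expressed, with a summed level of 1420 to 1440 RPKM (reads scaled by feature length and library total) under Mulas2019 and 1540 to 1670 under Keniry2022. Pou5f1, which encodes the pluripotency factor OCT4, ranged from 314 to 601 RPKM and Nanog from 407 to 549 RPKM. In the pooled test between methods described below, 4 of the 10 were higher under Keniry2022, 1 (Klf4, -0.40) was lower and 5 did not pass, where 51.5% of all features passed. None of 10 fibroblast feeder markers passed the filter on low values, with Postn and Dcn at 0 reads in every library. Others had some reads, such as Col1a1 (22 to 55 per library) and Pdgfrb (20 to 148). Mean log2 RPKM of Pdgfrb was higher under Mulas2019 (-0.62) than under Keniry2022 (-2.11), and that of Thy1 was lower (-2.46 against -1.46). The first p0 library stood apart from the others, and its length-related pattern is given with the p0 comparisons. Reads of 4 Y-linked genes were near absent from 1 line (summed level 0.114 to 1.18 RPKM in 5 libraries, 34.2 to 62.8 RPKM in the other 5), and in the p20 Keniry2022 group replicate 1 and not replicate 2 carried them. The replicate numbers of that group therefore appear to be crossed, and line identity was not used in the main comparisons.

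The 10 genes ranged from abundant to weakly expressed mRNAs. Ctnnb1 had a mean over the 10 libraries of 185 RPKM, Ctnna1 153 RPKM and Cdh1 133 RPKM, each above at least 98.7% of all features. Epcam followed with 42.1 RPKM, Ctnnd1 with 36.1 RPKM and Tjp1 with 23.9 RPKM. Jup had 10.4 RPKM, Cldn6 6.07 RPKM, Cldn7 2.31 RPKM and Dsp 2.07 RPKM. Neighbours in this order were not always separate: the ranges over the libraries of Ctnna1 (127 to 163 RPKM) and Cdh1 (104 to 146 RPKM) overlapped, as did those of Epcam (30.8 to 48.4 RPKM) and Ctnnd1 (22.2 to 39.9 RPKM), and those of Cldn7 (1.34 to 4.19 RPKM) and Dsp (0.587 to 3.13 RPKM). The levels of Cldn7 rested on 77 to 198 reads per library, those of Cldn6 on 168 to 350 and those of Dsp on 136 to 885, whereas Cdh1 had 11413 to 19704 reads. The claudins and Dsp were thus read far less deeply than E-cadherin. Since these are bulk samples, fewer cells with an mRNA and less of it per cell cannot be told apart.

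**Figure D1:**
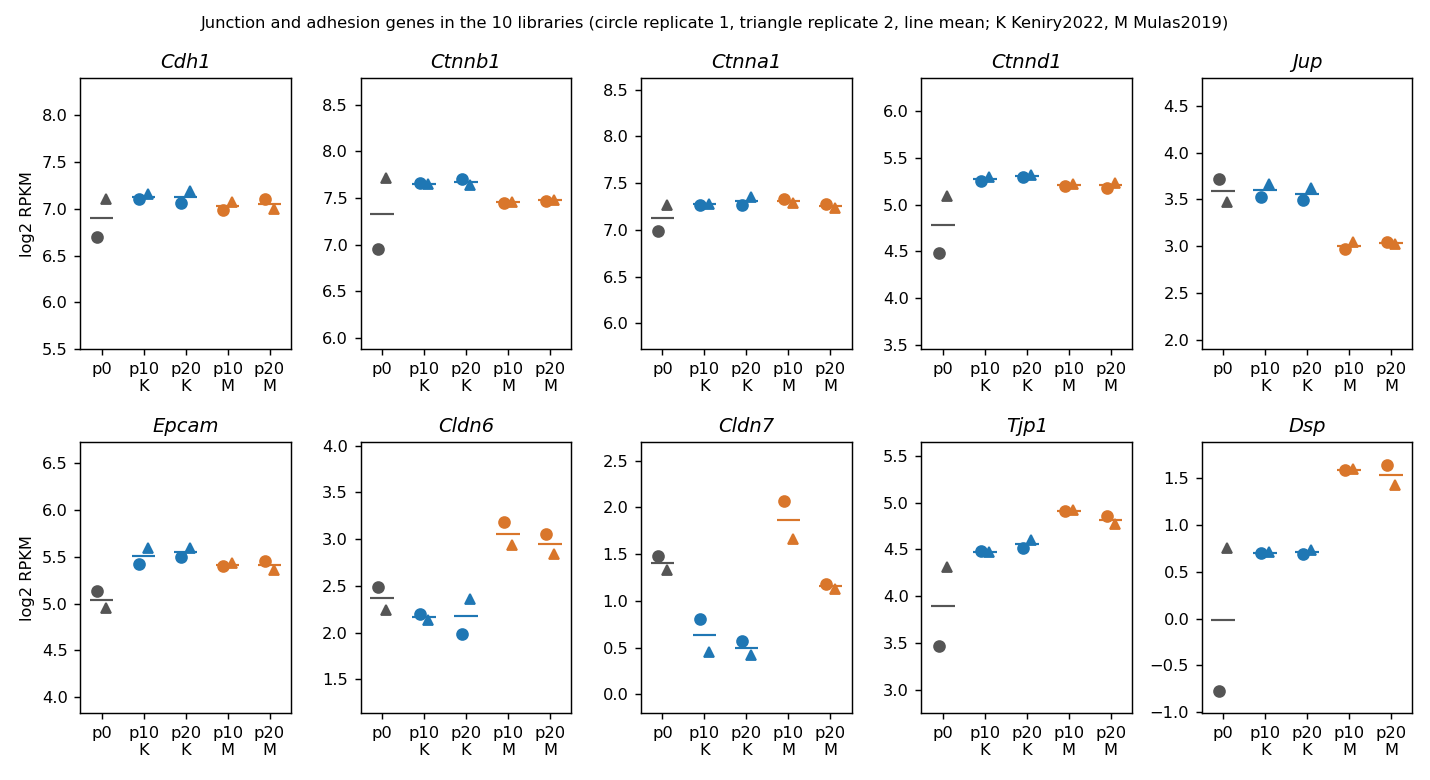
Log2 RPKM of each of the 10 genes (vertical axis, the same span in every panel) in p0 cells and in p10 and p20 cells under Keniry2022 (K) and Mulas2019 (M); circles are replicate 1, triangles replicate 2 and lines the mean of the pair. Cdh1 and Ctnna1 overlap between methods, Jup lies lower and Cldn6, Tjp1 and Dsp lie higher in the 4 attached libraries than in all 6 floating ones, and p0 replicate 1 is the lowest library for Dsp, at -0.77.

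Attached and floating cells were compared first with p10 and p20 pooled, 4 libraries against 4. Of the 10 genes, 7 passed the test (limma, adjusted p below 0.05 over all features), where 51.5% of the 11654 features tested did so. Jup, Ctnnb1 and Ctnnd1 were higher in the floating Keniry2022 cells (3 of 10, against 25.9% of all features), and Cldn6, Cldn7, Tjp1 and Dsp were lower (4 of 10, against 25.5%). The values of the methods did not overlap for 7 of the 10, against 46.5% of all features. The number of genes called was therefore not far from that of the table as a whole. The sizes varied: the median size of the log2 difference over all features was 0.183, that of Cdh1 was 0.09, and 4 of the genes lay beyond 0.5. Ranked by size among the 11654 features, a difference of -0.50, that of Pard6g, was number 1148. Cldn7 was number 221, Dsp 298, Cldn6 328, Jup 896, Tjp1 2499 and Cdh1 8750.

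**Figure D2:**
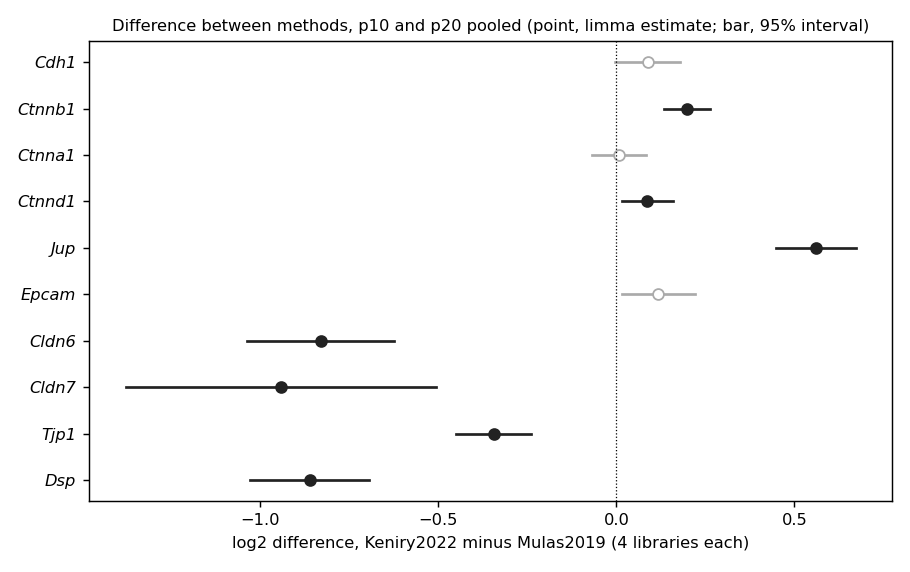
Log2 difference (Keniry2022 minus Mulas2019, horizontal axis) of each gene with its 95% interval, from 4 libraries per method; filled points passed the test at an adjusted p below 0.05. Jup lies at 0.56, Cldn6, Cldn7 and Dsp lie between -0.94 and -0.83, and the other genes lie between -0.35 and 0.20.

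Cdh1 (chromosome 8, 106603351 to 106670246, plus strand; all positions of genes are from GENCODE on GRCm38, the build of the table) overlapped between methods. Its log2 RPKM was 7.10 and 7.16 in p10 Keniry2022 libraries, 7.06 and 7.19 at p20, 6.99 and 7.07 in p10 Mulas2019 libraries and 7.11 and 7.0 at p20. Floating and attached libraries interleaved, and no group stood apart. The difference was 0.09 ± 0.04 (SE), with a 95% interval from -0.003 to 0.18 and an adjusted p of 0.0966. Quantile normalisation turned it to -0.08 (adjusted p = 0.118).

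Ctnna1 (chromosome 18, 35118888 to 35254773, plus strand) overlapped between methods, with 7.27 to 7.35 log2 RPKM under Keniry2022 and 7.23 to 7.33 under Mulas2019. The difference was 0.01 ± 0.03 (95% interval -0.069 to 0.082, adjusted p = 0.889). Quantile normalisation turned it to -0.15 with an adjusted p of 0.00704.

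Ctnnb1 (chromosome 9, 120929216 to 120960507, plus strand) had 7.66 and 7.65 log2 RPKM in the p10 Keniry2022 libraries and 7.70 and 7.64 at p20. The Mulas2019 libraries had 7.45 and 7.46 at p10 and 7.47 and 7.48 at p20. All 4 floating libraries were above all 4 attached ones, by a difference of 0.20 ± 0.03 (1.15-fold, adjusted p = 0.00039). Under quantile normalisation the difference was 0.05 and did not pass (adjusted p = 0.175), nor did it with p0 counted as floating (0.09, adjusted p = 0.649) or in the model of 5 groups (0.20, adjusted p = 0.354). Of its exon bases, 15.1% are shared with other genes, mainly Ulk4 on the opposite strand, and reads there could not be assigned without strand.

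Ctnnd1 (chromosome 2, 84600071 to 84650765, minus strand) had 5.25 to 5.32 log2 RPKM under Keniry2022 and 5.18 to 5.23 under Mulas2019, and passed narrowly (0.09 ± 0.03, adjusted p = 0.0424). It passed in 8 of 19 alternatives, was 0.01 under quantile normalisation and turned to -0.08 with p0 counted as floating. Gm28635 on the same strand covers 61.2% of its exon bases, so its values are uncertain.

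Jup (chromosome 11, 100368958 to 100397763, minus strand), the relative of β-catenin that serves both adherens junctions and desmosomes, differed most among the E-cadherin partners. It had 3.53 and 3.67 log2 RPKM in the p10 Keniry2022 libraries and 3.49 and 3.62 at p20, against 2.97 and 3.04 in the p10 Mulas2019 libraries and 3.04 and 3.02 at p20. No attached library reached the lowest floating one. The floating cells had 1.48-fold more (log2 difference 0.56 ± 0.05, adjusted p = 4.73e-05), and all 19 alternatives kept the call, with differences of 0.53 to 0.59. Per length, Ctnnb1 exceeded Jup 15.8- to 18.6-fold in the floating p10 and p20 libraries and 21.4- to 22.4-fold in the attached ones.

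The remaining adhesion genes went the other way, apart from Epcam. Cldn6 (chromosome 17, 23679365 to 23682446, plus strand) had 2.20 and 2.14 log2 RPKM in p10 and 1.99 and 2.36 in p20 Keniry2022 libraries. The Mulas2019 libraries had 3.18 and 2.94 at p10 and 3.05 and 2.84 at p20. It was 1.78-fold higher in the attached cells (log2 difference, Keniry2022 minus Mulas2019, -0.83 ± 0.09, adjusted p = 0.000119), a call that all 19 alternatives kept.

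Cldn7 (chromosome 11, 69964779 to 69967885, plus strand), a claudin that binds Epcam, had 0.81 and 0.45 log2 RPKM in the p10 and 0.57 and 0.42 in the p20 Keniry2022 libraries. The attached libraries differed by passage, with 2.07 and 1.66 at p10 and 1.18 and 1.13 at p20. The pooled difference was -0.94 ± 0.20, or 1.92-fold higher when attached (adjusted p = 0.00287), and the SD among the attached libraries, 0.443, was the largest of the 10 genes. With p0 counted as floating, the difference was -0.66 and did not pass (adjusted p = 0.0779).

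Dsp (chromosome 13, 38151328 to 38198577, plus strand) had 0.70 and 0.71 log2 RPKM in the p10 and 0.69 and 0.73 in the p20 Keniry2022 libraries, and 1.59 and 1.6 in the p10 and 1.64 and 1.43 in the p20 Mulas2019 libraries. The floating libraries lay within 0.04 of each other and well apart from the attached ones. The difference was -0.86 ± 0.08, or 1.82-fold higher when attached (adjusted p = 4.54e-05). In the model of 5 groups, which takes in the spread of the p0 pair, the same contrast did not pass (adjusted p = 0.0702).

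Tjp1 (chromosome 7, 65296165 to 65371239, minus strand) had 4.48, 4.47, 4.52 and 4.60 log2 RPKM in the Keniry2022 libraries and 4.91, 4.92, 4.86 and 4.77 in the Mulas2019 libraries, in each case p10 before p20. The groups did not overlap, and the attached cells had 1.27-fold more (-0.35 ± 0.05, adjusted p = 0.000294). The call was lost in the model of 5 groups (adjusted p = 0.162) and with p0 counted as floating (-0.56, adjusted p = 0.0523).

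Epcam (chromosome 17, 87635979 to 87651106, plus strand) had 5.42 to 5.60 log2 RPKM under Keniry2022 and 5.36 to 5.46 under Mulas2019, which overlapped. The difference was 0.12 ± 0.05 (95% interval 0.015 to 0.221, adjusted p = 0.0553). It passed under 2 of the 19 alternatives, and with p0 counted as floating it turned to -0.05.

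The promoters of these genes are shown because Snail and ZEB repressors are known to bind the E-box CAGGTG in promoters of epithelial genes, and Grainyhead factors bind AACCGGTT. RefSeq sequences (GRCm38.p6) of the 250 bases before the start were at hand for 8 of the 10 genes, all but Cdh1 and Ctnna1. CAGGTG was searched on both strands, so that it also reads CACCTG, and was found in Epcam and Cldn6, 2 of the 8 genes, against 17.2% of 32851 promoters. Epcam held 2 matches, beginning 187 and 19 bases before the start, and Cldn6 held 1, beginning 93 bases before it. AACCGGTT was found in none of the 8 and in 0.1% of all promoters. Such a match is a description of the letters, not a bound site. The sequences run 5′ to 3′ towards the start of the gene, with CAGGTG or CACCTG in capitals, for Epcam (chr17:87635729-87635978, plus strand) and Cldn6 (chr17:23679115-23679364, plus strand), which hold a match, and for Dsp (chr13:38151044-38151293, plus strand) and Jup (chr11:100397791-100398040, minus strand), which have the smallest adjusted p in each direction and hold none.
Epcam: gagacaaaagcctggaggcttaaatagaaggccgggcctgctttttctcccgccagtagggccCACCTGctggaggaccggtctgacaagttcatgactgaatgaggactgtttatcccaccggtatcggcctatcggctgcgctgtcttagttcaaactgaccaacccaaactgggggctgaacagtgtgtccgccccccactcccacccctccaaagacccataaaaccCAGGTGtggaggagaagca
Cldn6: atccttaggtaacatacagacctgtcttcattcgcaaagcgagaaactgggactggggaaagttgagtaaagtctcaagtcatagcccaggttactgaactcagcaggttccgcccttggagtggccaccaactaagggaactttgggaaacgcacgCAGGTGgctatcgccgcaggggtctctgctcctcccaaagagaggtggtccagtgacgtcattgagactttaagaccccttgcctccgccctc
Dsp: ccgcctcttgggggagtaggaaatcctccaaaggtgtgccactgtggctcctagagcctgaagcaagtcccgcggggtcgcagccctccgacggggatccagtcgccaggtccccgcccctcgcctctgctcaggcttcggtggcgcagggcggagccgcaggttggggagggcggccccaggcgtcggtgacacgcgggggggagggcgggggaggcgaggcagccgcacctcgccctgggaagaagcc
Jup: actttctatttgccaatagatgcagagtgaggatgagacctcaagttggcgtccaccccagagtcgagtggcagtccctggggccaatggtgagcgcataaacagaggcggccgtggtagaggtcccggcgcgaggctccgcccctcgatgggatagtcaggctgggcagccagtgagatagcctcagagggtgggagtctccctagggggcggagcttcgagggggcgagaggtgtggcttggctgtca
Epcam, with 2 matches, overlapped between methods, while Cldn6, with 1, was lower in the floating cells, and the other genes called lower had no match in this window.

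The same question was then asked at each passage in a model of all 10 libraries in 5 groups, where 8.53% of 11561 features passed at p10. Jup (0.59 ± 0.11, adjusted p = 0.0206), Cldn6 (-0.90 ± 0.16, adjusted p = 0.0197) and Cldn7 (-1.23 ± 0.18, adjusted p = 0.0111) were the 3 of the 10 genes called. At p20, where 2.15% of features passed, none of the 10 did by limma, although 3 had an unadjusted p below 0.05: Jup (0.53, adjusted p = 0.0565), Cldn6 (-0.77, adjusted p = 0.0578) and Cldn7 (-0.66, adjusted p = 0.108). Over all 11561 features at p20, 2238 had an unadjusted p below 0.05. With a replicate block in which the numbers of the p20 Keniry2022 group were crossed, Cldn6 was called at p20 (-0.77, adjusted p = 0.0364). With days of culture matched (Keniry2022 p20 against Mulas2019 p10), 6.43% of features passed, and Jup (0.55, adjusted p = 0.0313), Cldn6 (-0.89, adjusted p = 0.0248) and Cldn7 (-1.37, adjusted p = 0.0142) were again called. The days-matched and the passage-matched comparisons share libraries, so they are not separate evidence.

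These counts depended on the p0 libraries, which enter only through the shared estimate of spread and the filter. Without p0 replicate 1, Ctnnb1, Jup, Cldn6, Cldn7, Tjp1 and Dsp, 6 of the 10 genes, passed at p10 (47.9% of all features), at p20 (36.2%) and with days matched (43.1%). Without p0 replicate 2 the same 6 genes passed, against 48.1%, 36.3% and 43.1% of features. The log2 differences were those of the full model, for example 0.20 at p10 and at p20 for Ctnnb1, -0.44 and -0.25 for Tjp1, and -0.89 and -0.83 for Dsp.

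Whether the difference between methods itself changed from p10 to p20 was tested as an interaction. None of the 10 genes passed by limma, and of all features 0% did (405 had an unadjusted p below 0.05). Cldn7 came nearest among the 10: its difference shrank by 0.57 on the log2 scale from p10 to p20 (95% interval -0.024 to 1.168, unadjusted p = 0.0578, adjusted p = 1).

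Attached cells were next set beside p0, the floating cells from which both methods started. At p10 under Mulas2019, 33% of features differed from p0, and among the 10 genes Jup was lower (-0.59) and Epcam (0.38), Cldn6 (0.70), Tjp1 (1.03) and Dsp (1.61) were higher, with adjusted p between 0.0139 and 0.0292. At p20, where 29.3% of features passed, the same 5 genes were called: Jup at -0.57, Epcam at 0.37, Cldn6 at 0.58, Tjp1 at 0.92 and Dsp at 1.55, with adjusted p between 0.0173 and 0.0368. The other 5 genes were called at neither passage.

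Cells kept floating under Keniry2022 were compared with p0 in the same model. At p10 0.199% of features passed and at p20 again 0.199%, and none of the 10 genes was called at either passage, though 4 had an unadjusted p below 0.05 at each. Of the 11561 features tested, 2860 had an unadjusted p below 0.05 at p10 and 3237 at p20. Epcam lay at 0.47 (adjusted p = 0.113) at p10 and at 0.51 (adjusted p = 0.091) at p20, and Cldn7 at -0.77 (adjusted p = 0.121) and -0.91 (adjusted p = 0.0956). The p0 libraries were used by all 4 of these comparisons. Over all libraries, the 6 floating ones did not overlap with the 4 attached ones for Jup, Cldn6, Tjp1 and Dsp, 4 of the 10 genes, against 32.9% of all features.

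The p0 pair differed in itself, in a manner that followed feature length. In p0 replicate 1 relative to replicate 2, the median log2 difference was 0.47 for features up to 2000 bases long, 0.21 up to 4000, -0.08 up to 6000 and -0.42 above that. These classes use GENCODE exon length, whereas the lengths in brackets below were recovered from the deposited values. For Ctnna1 the 2 differ, and its GENCODE length of 6425 bases puts it in the longest class. Dsp (9625 bases) was lower by 1.52 on the log2 scale in replicate 1, with -0.77 against 0.75 log2 RPKM. Tjp1 (7360 bases) had 3.47 against 4.31, Ctnnb1 (5099 bases) 6.95 against 7.71, Ctnnd1 (7319 bases) 4.48 against 5.09, Cdh1 (4574 bases) 6.70 against 7.11 and Ctnna1 (3698 bases) 6.99 against 7.27. The differences of Ctnnb1 (-0.76) and Cdh1 (-0.41) were well beyond the median of their class, -0.08. The shorter Epcam (5.13 against 4.95), Cldn6 (2.49 against 2.24) and Cldn7 (1.48 against 1.33) were higher in replicate 1, as was Jup (6436 bases, 3.72 against 3.47), where the median of its length class was -0.42. The part of feature length in these p0 values was not tested beyond those medians.

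**Figure D3:**
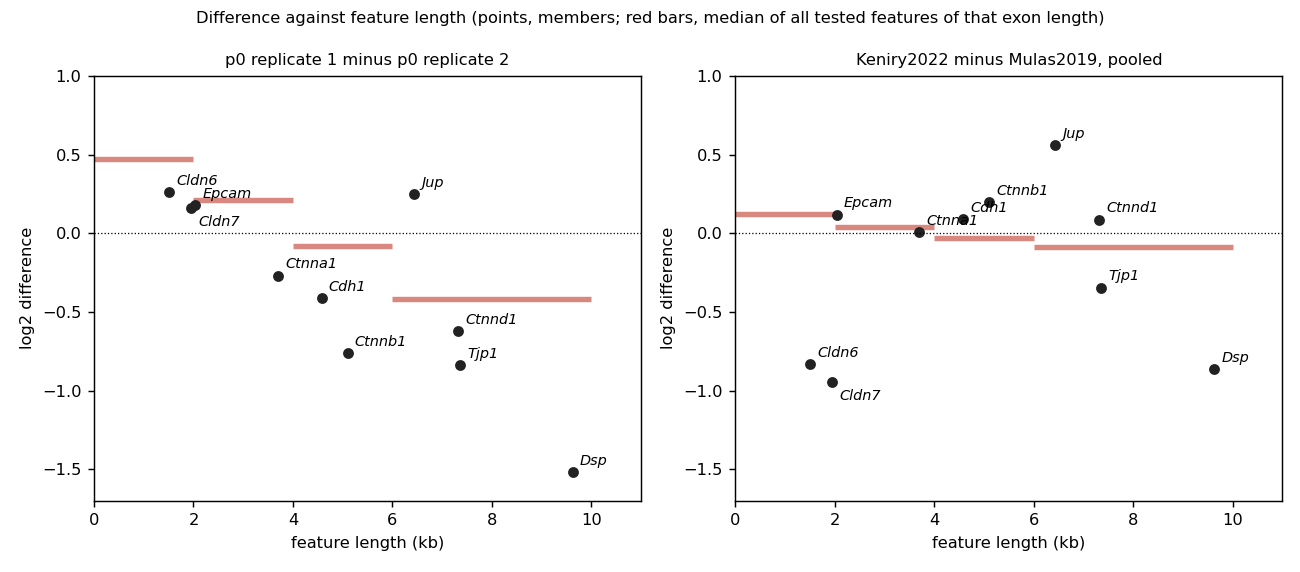
Log2 difference of the 10 genes (points) against the feature length recovered from the table, in kilobases, for p0 replicate 1 minus replicate 2 (left) and for Keniry2022 minus Mulas2019 pooled (right); red bars are the median of all tested features in 4 classes of GENCODE exon length, the longest class drawn to 10 kb. On the left the medians fall from 0.47 to -0.42 and Dsp lies at -1.52. On the right the medians run from 0.12 to -0.09, and Cldn6, Cldn7, Jup and Dsp lie far from them.

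Given that pattern, the p0 comparisons were repeated without p0 replicate 1, leaving 1 p0 library that is assumed to vary like the other groups. Under Mulas2019, 6 of the 10 genes then differed from p0 at p10 (40.5% of features) and at p20 (37.5%). Dsp was at 0.85 and 0.79 and Tjp1 at 0.61 and 0.50, both still called but reduced from the values with both p0 libraries. Ctnnb1 turned from 0.13 to -0.25 at p10 (adjusted p = 0.00378) and from 0.14 to -0.23 at p20 (adjusted p = 0.00545), so the direction of its change under Mulas2019 rests on that library. Jup stayed lower (-0.47 and -0.44) and Epcam (0.47 and 0.46) and Cldn6 (0.83 and 0.71) stayed higher. Under Keniry2022, only Epcam of the 10 genes was called, at 0.56 (p10, 5.23% of features) and 0.60 (p20, 4.61%). Without p0 replicate 2 instead, 9 of the 10 genes were called under Mulas2019 (71.8% and 71.1% of features) and 8 under Keniry2022 (64.3% and 66.5%).

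In the comparison of methods, length classes differed less than in the p0 pair, with medians of 0.12, 0.04, -0.03 and -0.09 from the shortest to the longest. The differences of Epcam (0.12), Cdh1 (0.09) and Ctnnd1 (0.09) were no larger than the largest of these medians. Cldn6 and Cldn7, in the shortest class, were lower in floating cells where that class was on the median slightly higher, and Jup, in the longest, was higher where that class was slightly lower. Dsp and Tjp1 went in the direction of the longest class, by more than its median.

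The wider junction and polarity programme was described with lists of genes, by the pooled comparison and the share of 51.5% called among all features, with an overall median difference of -0.003. In the model of 5 groups, which takes in the spread of the p0 pair, Mllt4, Celsr1, Celsr2, Fat1, Amotl1, Ocln, Lin7c, Pkp4, Fn1, Tcf4, Ptprf, Numb and Src were not called, although they passed in the pooled comparison. With p0 counted as floating, Actn4, Mllt4, Fat1, Lin7c, Pkp3, Pkp4 and Tcf4 were not called. Among adherens junction partners, 12 of 17 tested genes were called, 4 higher and 8 lower in floating cells (median -0.114). The α-catenin-like Ctnnal1 (0.46, adjusted p = 0.00424), the nectin Pvrl3 (0.45, adjusted p = 0.000208) and the actin crosslinker Actn4 (0.28, adjusted p = 0.00198) were higher, of which Actn4 lost its call under quantile normalisation (0.16, adjusted p = 0.0555). The nectin Pvrl2 (-0.60, adjusted p = 0.000471), the LIM protein Limd1 (-0.46, adjusted p = 0.00119) and afadin (Mllt4; -0.21, adjusted p = 0.0147), which joins nectins to actin, were lower. Nectins thus moved in both directions.

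Of 23 other cadherins in the table only 6 were expressed enough to test, and 1 was higher and 3 lower in floating cells. P-cadherin (Cdh3) was higher (0.35, adjusted p = 0.00783), whereas the planar polarity cadherins Celsr2 (-0.65, adjusted p = 0.00158) and Celsr1 (-0.58, adjusted p = 6.06e-05) and the atypical cadherin Fat1 (-0.27, adjusted p = 0.00381) were lower. For Celsr2 the attached libraries alone met the filter, with the Keniry2022 libraries at -0.32 to 0.01 log2 RPKM. N-cadherin (Cdh2) did not pass the filter.

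Tight junction genes had 20 tested members beside Tjp1 and the claudins above, of which 10 were lower in floating cells, 1 was higher and 9 were not called (median -0.204). The tricellular junction receptor Lsr (-1.06, adjusted p = 4.37e-05), Cldn3 (-0.98, adjusted p = 0.000328) and the angiomotin relative Amotl1 (-0.65, adjusted p = 8.99e-05) differed most among those lower, and occludin (Ocln) was also lower (-0.30, adjusted p = 0.0275), though it was called in only 9 of 18 alternatives and had -0.17 (adjusted p = 0.177) under quantile normalisation. Cldn4 did not pass (-0.14, adjusted p = 0.214).

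Of 17 tested apicobasal polarity genes, 6 were lower, 1 higher and 10 not called (median -0.111). Pard6g (-0.50, adjusted p = 0.000643), Inadl, which encodes the PATJ scaffold (-0.43, adjusted p = 0.02), and the atypical protein kinase C gene Prkcz (-0.35, adjusted p = 0.00458) were lower, and Lin7c was slightly higher (0.11, adjusted p = 0.035; 0.02 and not called under quantile normalisation). Under that normalisation Inadl (-0.20, adjusted p = 0.226) and Prkcz (-0.20, adjusted p = 0.0779) also lost their calls. Inadl met the filter only through the attached libraries (0.16 to 0.26 log2 RPKM), as the Keniry2022 libraries lay below 0 (-0.46 to -0.03). Its call therefore rests on the group where it was high, and the fits of all 10 libraries did not test it.

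Among 8 tested desmosome and keratin genes other than Dsp and Jup, 4 were lower, 1 higher and 3 not called (median -0.175). The simple epithelial keratins Krt18 (-1.13, adjusted p = 0.000381) and Krt19 (-0.96, adjusted p = 0.00413) and the plakophilins Pkp3 (-0.76, adjusted p = 0.00637) and Pkp2 (-0.28, adjusted p = 0.0257) were lower in floating cells. For Krt18, Krt19 and Pkp3 the attached libraries alone met the filter. The Keniry2022 libraries had -0.44 to 0.31, -0.74 to 0.42 and -0.27 to 0.32 log2 RPKM. Krt18 rested on 29 to 84 reads per library and Krt19 on 32 to 115. Pkp4 was higher (0.18, adjusted p = 0.0108), a call lost under quantile normalisation (0.09, adjusted p = 0.142). The desmosomal cadherin Dsg2 had a difference of -0.07 (adjusted p = 0.215), and Krt8, the partner of Krt18, did not pass the filter.

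**Figure D4:**
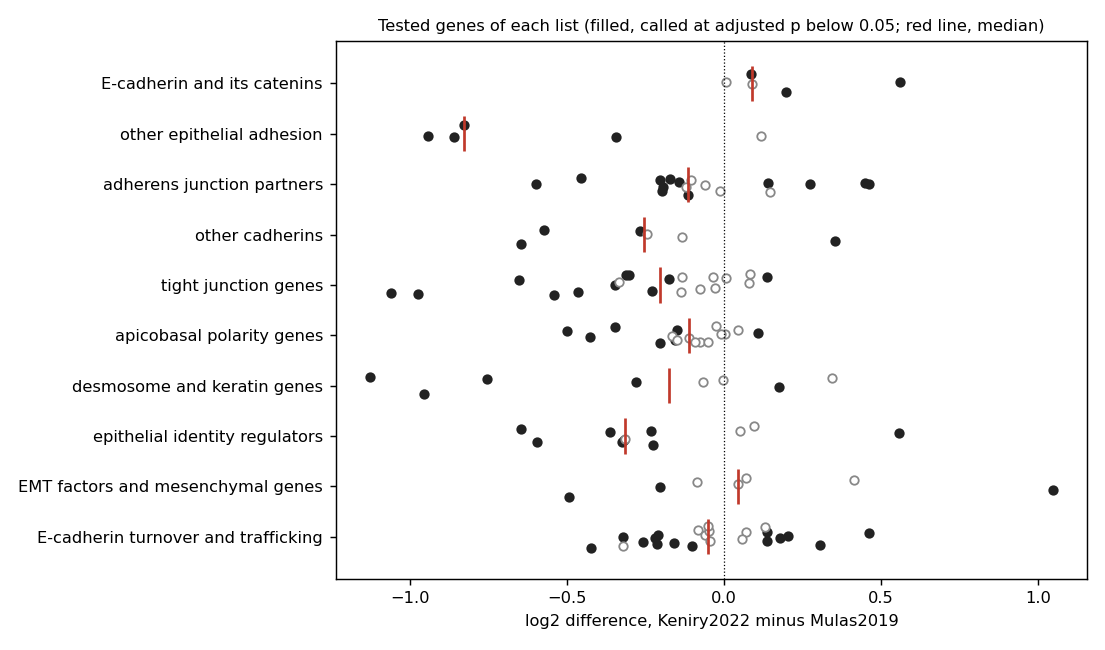
Log2 difference (Keniry2022 minus Mulas2019, pooled) of each tested gene in the 10 lists, with the 10 described genes in the top rows; filled points passed the test, red lines are medians, and vertical scatter within a row has no meaning. The medians of the tight junction genes (-0.204) and the epithelial identity regulators (-0.315) lie below 0, and those of the EMT (0.044) and turnover (-0.052) lists lie near it.

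Regulators of epithelial identity had 7 of 11 tested members lower, 1 higher and 3 not called (median -0.315). The clathrin adaptor subunit Ap1m2 (-0.65, adjusted p = 0.0043) and the transcription factors Elf3 (-0.60, adjusted p = 0.000217) and Grhl3 (-0.36, adjusted p = 0.0265) were lower, with the call of Grhl3 lost under quantile normalisation (-0.29, adjusted p = 0.0869), and the protease inhibitor Spint1 was higher (0.56, adjusted p = 0.00122). The splicing regulator Esrp1 had a difference of -0.32 (adjusted p = 0.406), and Grhl2 was not tested.

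Among the factors of epithelial to mesenchymal transition (EMT) and mesenchymal genes, 7 of 17 in the table were tested, with 1 higher, 2 lower and 4 not called (median 0.044). Snai1 and Zeb2, which encode repressors of Cdh1, did not pass the filter, and Zeb1 had a difference of 0.07 (adjusted p = 0.469). Snai3 was 2.07-fold higher in floating cells (1.05, adjusted p = 0.00218), at 0.65 to 1.51 log2 RPKM against -0.40 to 0.19, and here the Keniry2022 libraries alone met the filter. Fibronectin (Fn1), an extracellular matrix protein, was lower (-0.50, adjusted p = 0.000111), as was Tcf4 (-0.21, adjusted p = 0.0467), which kept its call in 5 of 18 alternatives and had -0.10 (adjusted p = 0.278) under quantile normalisation. Vimentin (Vim) did not pass (0.41, adjusted p = 0.0534).

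Genes for the turnover and trafficking of E-cadherin were called 6 times higher and 8 times lower of 23 tested (median -0.052). The kinase Yes1 (0.46, adjusted p = 9.65e-05) and the small GTPases Arf6 (0.30, adjusted p = 0.000133) and Rab5a (0.20, adjusted p = 0.00352) were higher, of which Rab5a lost its call under quantile normalisation (0.11, adjusted p = 0.0664). The receptor phosphatase Ptprf (-0.42, adjusted p = 8.77e-05), the endocytic adaptor Numb (-0.32, adjusted p = 0.000353) and the kinase Src (-0.26, adjusted p = 0.00113) were lower. Yes1 and Src, kinases of the same family, differed in opposite directions.

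Markers of other cell types were measured beside these lists. Of 10 trophectoderm markers, 3 were tested (1 higher, 1 lower in floating cells), and their summed level was 15.8 to 17.6 RPKM in floating and 13.7 to 16.7 RPKM in attached p10 and p20 cells, with Cdx2 at no more than 0.45 RPKM in any library. Of 10 primitive endoderm markers only the laminin gene Lama1 was tested, and it was lower in floating cells (-0.68, adjusted p = 0.00403). Their summed level was 4.63 to 6.34 RPKM in floating and 6.83 to 9.27 RPKM in attached p10 and p20 cells. The p0 libraries had 5.11 (replicate 1) and 6.95 RPKM (replicate 2), the latter within the attached range. Gata6 stayed at or below 0.487 RPKM, Sox17 at or below 0.457 RPKM and Foxa2 at or below 0.119 RPKM, with 0 reads of Foxa2 in at least 1 library. Primed epiblast and early lineage markers summed to 128 to 140 RPKM in floating and 76.1 to 90.3 RPKM in attached p10 and p20 cells. In p0 they summed to 111 (replicate 1) and 97.9 RPKM (replicate 2). Between methods, 3 of 4 tested markers were higher in floating cells and 1 was lower. Most of that sum came from Tubb3 (49.8 to 95.2 RPKM over all libraries) and Dnmt3b (17.6 to 37.3 RPKM). These and Pou3f1 were the markers called higher, and Nes was the one called lower. The others did not pass the filter: Otx2, T, Mixl1 and Sox1 had lower means in floating cells, and Fgf5 and Pax6 higher ones. The part of the endoderm and primed markers in the differences of the claudin, desmosomal and keratin genes was not tested. Fibroblast markers summed to 0.72 to 1.58 RPKM over all libraries.

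Features with a pattern like that of Cdh1 or of Cldn7, the gene with the largest pooled difference, were looked up among the 6198 features whose values averaged 3 or more on the log2 scale, by Pearson's r over the 10 libraries, as a description. For Cdh1 these were Nacc1, Cdyl2 and Plekhg3 (r = 0.98 each) and Stk35 and 1110012J17Rik (0.97 each). Without p0 replicate 1 the leading features became Snx17 (0.96) and Wdr1 (0.95), followed by Nacc1 (0.93). For Cldn7, Ifi30 came first with and without that library (0.99), followed over 10 libraries by Gramd1a (0.96), Ppp1r15a (0.95), Klf4 and Rnf130 (0.94 each). Among the genes described here, r between Cdh1 and Ctnnb1 was 0.91 over 10 libraries and 0.56 over the 9 without p0 replicate 1, and r between Tjp1 and Dsp was 0.97 and 0.92. These libraries share 2 lines and the same groups, so such values carry the group differences already given.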

How the data were processed

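The deposited table holds log2 values for 25965 features in 10 RNA-seq libraries. Per the study, the authors aligned trimmed 75 bp single-end reads to mm10 with HISAT2 and quantified them in SeqMonk. TopHat2 2.0.12 and bcl2fastq stand in the notes of the submitters instead. Neither annotation release nor strandedness was given in the sources used here. The file name says log CPM, but the deposited log2 values were per length (RPKM), with 0 reads entered as 0.9 reads, and these floors gave the library totals. Reads are not independent molecules.

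Tests used limma 3.58.1 (R 4.3.3, moderated test with an intensity trend, two-sided) with p-values adjusted by Benjamini-Hochberg across the whole tested table (threshold 0.05). The fits were also run on simulated data with independent libraries. That setting has no lines shared between passages and no p0 library that stands apart, so it cannot check those features of the design. Features entered a fit if 50% or more of its libraries had log2 values above 0, and no pseudocount was added. The study's fit by voom needs counts. Pooled comparisons used 8 libraries and the others 10 libraries in 5 groups. The 2 replicates of a group are the 2 lines. Genes of the lists were named by rule: up to 3 with the largest differences called in each direction per list, plus 15 chosen by symbol. A gene that the rule named is not reported here. The members and lists were chosen with earlier results of these data known.

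As a check of pairing, replicate differences correlated at 0.17 to 0.63 between groups, except with the p20 Keniry2022 group (-0.12 to -0.7). Alternatives were other scalings, filters, a pseudocount of 0.5, library weights, replicate blocks, other models and leaving out each library.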

Additional observations from a re-analysis of the deposited data

Results flagged for a closer look

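None of the 10 junction genes had a library far from the others of its method by Dixon's test. Over these genes and the tested genes named from the lists, 5 of 104 groups of 4 libraries did, and chance alone gives about 1 in 20. Limd1 had 2.39 log2 RPKM in p10 Mulas2019 replicate 1, against 2.16 to 2.17 in the other Mulas2019 libraries. Lin7c had 5.45 in p20 Keniry2022 replicate 1, against 5.33 to 5.35, and in the same library Rab5a had 5.48, against 5.56 to 5.57. Inadl had 0.26 in p20 Mulas2019 replicate 1, against 0.16 to 0.17. Snai3 had 1.51 in p10 Keniry2022 replicate 1, against 0.65 to 0.77 in the other Keniry2022 libraries, all of them above the Mulas2019 libraries.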

How the results depend on the processing

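Of the 10 genes, 7 were called between methods with passages pooled (51.5% of all features), and leaving out each library gave 6 to 8 (43.6% to 49.3%). The model of 5 groups called 3 (Jup, Cldn6 and Cldn7; 19.2%), and counting p0 as floating called 3 (Jup, Cldn6 and Dsp; 26.2%). Reversed pooled differences were those of Cdh1 (-0.08) and Ctnna1 (-0.15) under quantile normalisation, of Ctnna1 (-0.05), Ctnnd1 (-0.08), Epcam (-0.05) and Zeb1 (-0.09) with p0 counted as floating, and of Ctnna1 (-0.01) without p20 Keniry2022 replicate 2 or p20 Mulas2019 replicate 2 (range over left-out libraries -0.01 to 0.02). Ctnnb1 at Mulas2019 p10 against p0 was -0.25 without p0 replicate 1 and 0.51 without p0 replicate 2, and at p20 -0.23 and 0.52.

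With library weights, 6 genes were called at p10, at p20 and with days matched, against 3, 0 and 3, with 50.9%, 35.3% and 40% of all features called, and 0 (with 0% of all features) in Mulas2019 p10 and p20 against p0, against 5 and 5. Leaving out each library gave 0 to 6 at p10 (0% to 48.1% of all features), at p20 (0.00867% to 36.3%) and with days matched (0% to 43.1%), 0 to 9 in the Mulas2019 comparisons with p0 (0.0958% to 71.8% at p10, 0.00872% to 71.1% at p20) and 0 to 8 in the Keniry2022 ones (0% to 64.3% and 0% to 66.5%). Without a filter, Mulas2019 against p0 called 3 genes at p10 (9.35%) and 1 at p20 (7.61%), and median centring called 3 at p20 (29%). The highest counts came without a p0 library, and a group left with 1 library was assumed to vary like the others. At p10, 0 or 1 gene remained called without any p10 library, and with days matched 0 or 1 without any p10 or p20 library. Mulas2019 p10 against p0 called 0 without either p10 Mulas2019 library and 3 without either p10 Keniry2022 library or p20 Keniry2022 replicate 2, and Mulas2019 p20 against p0 called 0 to 2 without any p10 or p20 library.

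The replicate block as numbered called 7 genes in the pooled comparison (49.3% of all features). The numbers did not pair the p20 Keniry2022 libraries, so the block with that group's numbers crossed was also run: the pooled comparison lost Ctnnd1 (adjusted p = 0.0566, with 49.6% of all features called) and the p20 comparison gained 1 gene, Cldn6 (1.35% of all features). The causes of these changes were not tested. The promoter window extended to 50 bases after the start held CAGGTG in 3 of 8 genes (20.2% of all promoters), against 2. Cldn7, Cldn6 and Dsp rested on the fewest reads of the 10 genes. Some list genes with large differences were also read thinly: Krt18 had 29 to 84 reads per library, Krt19 32 to 115 and Snai3 33 to 128. Cldn3 had 44 to 128 and Pkp3 84 to 206.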
